A study of Mus musculus with 110 samples.

Results

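Inguinal white adipose tissue (iWAT) of mice that received both thermogenic stimuli was compared with iWAT of mice that received neither. The libraries were chosen by their titles alone, which gave 6 of MetR_CE and 7 of Ctrl_RT, together 13 of the 110 libraries of the series, and every gene with at least 10 counts over all 27 iWAT libraries was tested. All animals were male wild-type C57BL/6N mice of about 16 weeks. Ctrl_RT mice ate a control diet with 0.86% methionine for 7 days at 22 °C. MetR_CE mice ate a methionine-restricted diet with 0.12% methionine for 7 days and were then kept for 24 h at 4 °C. Both diets held 0% cysteine, so the controls also lacked that sulfur amino acid. The cold-exposed mice were studied at the end of that additional day, so cold and the longer time on the diet cannot be told apart. The remaining groups, Ctrl_CE (control diet and cold, 7 libraries) and MetR_RT (restricted diet at 22 °C, 7 libraries), entered the same fit and served to ask what the combination added to each stimulus alone. Each library came from another mouse, and the p-values measure the spread between mice.

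Subcutaneous fat of mice responds to cold by beiging, in which adipocytes gain mitochondria and the uncoupling protein UCP1 and burn lipid and glucose as heat. Noradrenaline from sympathetic nerves drives this through beta-adrenergic receptors, cAMP and protein kinase A, with PGC-1 coactivators and nuclear receptors turning on the mitochondrial genes. Shortage of an amino acid is sensed by the integrated stress response, in which the transcription factor ATF4 turns on genes for amino acid supply and the hormone FGF21.

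Total counts ran from 17215367 to 31843742 in Ctrl_RT (median 19044743) and from 21326784 to 33141066 in MetR_CE (median 27782035). Levels are given as normalized CPM, counts scaled to a common library size after TMM normalization, which do not correct for gene length, so they were compared between groups and not between genes. Markers of adipocytes bore out that the tissue was fat, but they do not tell inguinal fat from other depots. The 10 adipocyte markers summed to 23012 to 29739 normalized CPM in Ctrl_RT and 31400 to 34806 in MetR_CE. Markers of tissues that lie beside this depot varied between libraries. The summed skeletal muscle markers ran from 3.13 to 6843 in Ctrl_RT (median 202) and from 22.7 to 6572 in MetR_CE (median 1425), with Ctrl_RT replicates 2 and 6 and MetR_CE replicate 6 above 2000. MetR_RT replicates 5 and 6 also passed 2000, at 7145.6 and 27011, and these 5 libraries are called muscle-rich below. Of 14 muscle markers, 3 were called higher in MetR_CE, and 0 without its replicate 6. The summed markers of lymph node stroma ran from 24.2 to 44.7 in Ctrl_RT and from 4.20 to 49.6 in MetR_CE, and those of mammary epithelium from 1.60 to 29.7 and from 1.15 to 8.47, with the keratins Krt8 and Krt14 at a median of 0 in both groups. In addition, Ctrl_RT replicate 7 stood apart for interferon, neutrophil and chemokine genes. Some of the results that it touches are given with and without it, and others with all libraries only.

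Between MetR_CE and Ctrl_RT, 5932 of 26428 genes tested were called, 22.4% of all, by an adjusted p under 0.05 and a change of at least 1.5-fold (edgeR's quasi-likelihood test with Benjamini-Hochberg adjustment). Of these, 2127 were higher (8.05% of the genes tested) and 3805 were lower (14.4%). Changes of at least 4-fold were more frequent among the lower genes, with 1304 against 335 higher. Among the 13904 genes with a mean of at least 1 normalized CPM, 1620 were called higher (11.7%) and 2246 lower (16.2%), and in 1182 and 1581 of these no MetR_CE library overlapped a Ctrl_RT library. Over all genes, the values of the groups did not overlap in 2444 genes with MetR_CE above (9.25%) and in 2468 with MetR_CE below (9.34%). Over all genes tested, the log2 fold change had a median of -0.08, against which the medians of the gene groups are to be read. In bulk tissue, fewer cells of a type and less RNA per cell cannot be told apart, and this holds for every gene group.

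**Figure D1:**
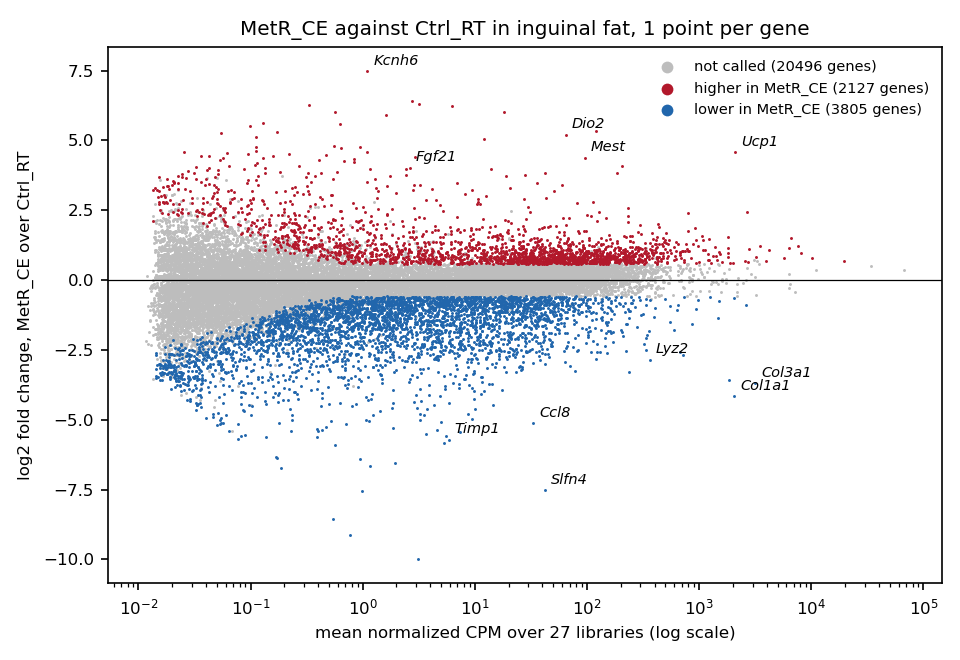
Log2 fold change of MetR_CE against Ctrl_RT (y axis) over the mean level of each gene in normalized CPM of the 27 iWAT libraries (x axis, log scale), with 1 point per gene tested. Red points are the 2127 genes called higher, blue points the 3805 called lower and grey points the others, and the blue points reach further from 0 than the red ones.

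Genes of oxidative metabolism were higher in MetR_CE and genes of immune cells and matrix were lower, with little mixing of directions within a list. Thermogenic effectors, the respiratory chain, the TCA cycle and fatty acid oxidation had no member called lower. Macrophage markers, chemokines, interferon-stimulated genes, antigen presentation and proliferation had no member called higher. With the 5 muscle-rich iWAT libraries left out of the fit, a choice made after seeing the data, the called members were 20 of 20 thermogenic effectors, 25 of 31 genes of fatty acid oxidation and 59 of 76 of the respiratory chain on the higher side, and 22 of 24 macrophage markers and 31 of 44 matrix genes on the lower side.

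**Figure D2:**
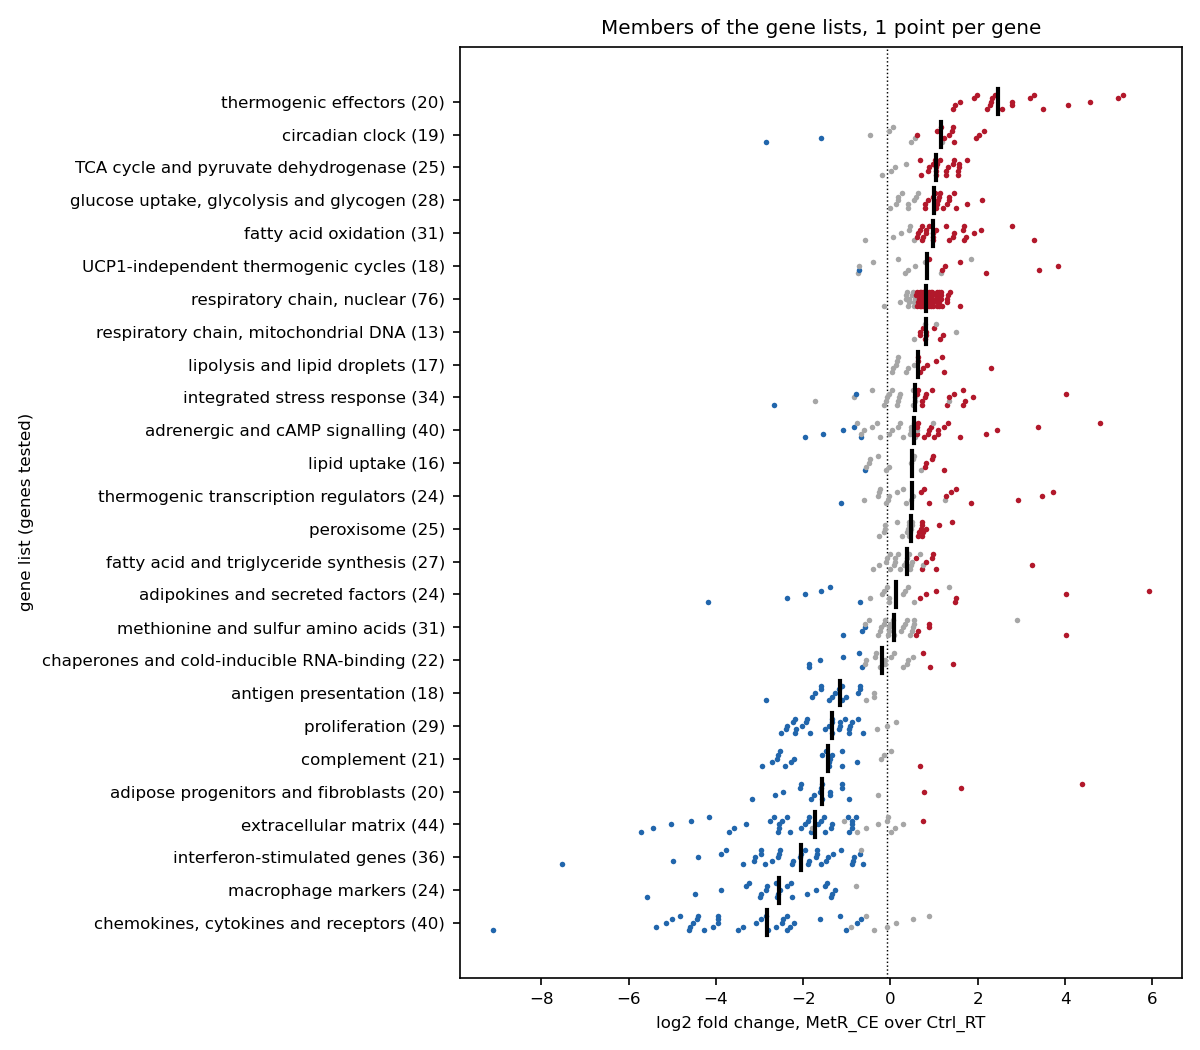
Log2 fold change of MetR_CE over Ctrl_RT (x axis) of the members of each gene list (y axis, with the number tested), 1 point per gene, red where called higher, blue where called lower and grey where not called. Black bars mark the median of each list and the dotted line the median of all genes, -0.08, and the lists of oxidative metabolism lie to its right and the immune and matrix lists to its left.

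All 20 thermogenic effectors tested were called higher, with a median log2 fold change of 2.47, and for all 20 the groups did not overlap. Ucp1, which encodes the mitochondrial uncoupling protein of brown and beige adipocytes, ran from 1.27 to 449 in Ctrl_RT (median 72.4) and from 2173 to 5658 in MetR_CE (median 3770.0). Even the lowest MetR_CE library lay above the highest Ctrl_RT library, and the Ctrl_RT values themselves spread widely (log2 fold change 4.58 ± 0.77 (SE), adjusted p = 3.15e-05). Dio2, the deiodinase that makes active thyroid hormone, ran from 1.49 to 6.25 in Ctrl_RT (median 2.79) and from 85.1 to 229.9 in MetR_CE (median 123) without overlap (log2 fold change 5.21 ± 0.57 (SE), adjusted p = 1.75e-07). Elovl3, an elongase of very long fatty acids, ran from 1.80 to 73.3 in Ctrl_RT (median 12.1) and from 235 to 730.1 in MetR_CE (median 369) (log2 fold change 4.07 ± 0.64 (SE), adjusted p = 1.28e-05, and log2 fold change 4.68 without Ctrl_RT replicate 5). Fabp3, the fatty acid binding protein of heart and active brown fat, had the largest change of the list, with a median of 3.05 normalized CPM in Ctrl_RT and 211 in MetR_CE (log2 fold change 5.34 ± 0.86 (SE), adjusted p = 1.84e-05). Cidea, a lipid droplet protein used as a marker of beige fat, had a median of 166 normalized CPM in Ctrl_RT and 605 in MetR_CE (log2 fold change 1.99 ± 0.42 (SE), adjusted p = 0.000438), and Cox7a1, a cytochrome c oxidase subunit of oxidative tissues, a median of 8.41 normalized CPM in Ctrl_RT and 90.1 in MetR_CE (log2 fold change 3.19 ± 0.44 (SE), adjusted p = 2.9e-06). Fabp3, Cox7a1 and Cpt1b are also genes of skeletal muscle, whose markers varied between libraries as given above. The smallest changes of the list were those of Gpd2, the mitochondrial glycerol phosphate dehydrogenase (log2 fold change 1.42), and Cox8b, another oxidase subunit (log2 fold change 1.48). Of the markers of the classical brown depot, Zic1 did not exceed 0.282 normalized CPM in any library of both groups, and Lhx8 was not called (log2 fold change 0.46, adjusted p = 0.183).

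**Figure D3:**
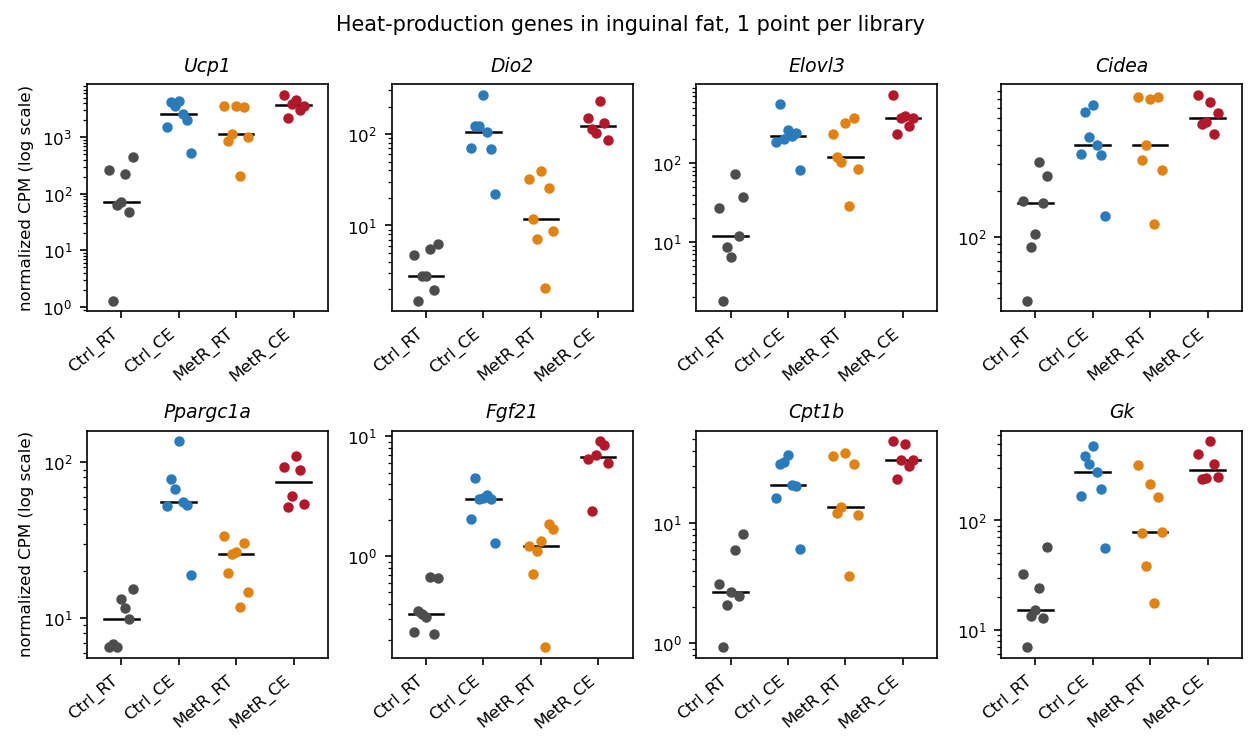
Normalized CPM of thermogenic, stress and metabolic genes (log axis) in each library of the 4 iWAT groups, 1 point per mouse with the median as a line. For Ucp1, Dio2 and Fgf21, all MetR_CE points lie above all Ctrl_RT points.

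Of 24 transcriptional regulators of the thermogenic program, 10 were called higher and 1 lower (median log2 fold change 0.49). Ppargc1a, the PGC-1alpha coactivator of mitochondrial genes, ran from 6.51 to 15.5 in Ctrl_RT (median 9.88) and from 51.9 to 110.2 in MetR_CE (median 74.8). The groups were clearly apart (log2 fold change 2.92 ± 0.33 (SE), adjusted p = 2.29e-07). Perm1, a regulator known from muscle and heart, had a median of 2.92 normalized CPM in Ctrl_RT and 39.2 in MetR_CE (log2 fold change 3.73 ± 0.52 (SE), adjusted p = 3.19e-06). The nuclear receptors Esrrg (log2 fold change 3.47), Ppara (1.85) and Esrra (1.39) were also called higher, as was Prdm16, a factor of brown and beige identity, by a smaller log2 fold change of 0.88. Irf4, which partners PGC-1alpha and is also used by immune cells, was the regulator called lower (log2 fold change -1.13 ± 0.36 (SE), adjusted p = 0.0148), and its groups overlapped. Ebf2, Zfp516 and Ehmt1, which act early in the commitment to brown fat, were not called, with log2 fold changes of -0.06, -0.10 and -0.04.

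Adrenergic and cAMP signalling was mixed, with 17 of 40 genes called higher and 5 lower (median log2 fold change 0.55). The receptors went both ways. Adrb1, the beta-1 receptor, ran from 5.98 to 12.7 in Ctrl_RT (median 6.78) and from 18.7 to 27.3 in MetR_CE (median 24.3) normalized CPM, without overlap (log2 fold change 1.59 ± 0.27 (SE), adjusted p = 4.14e-05). Adrb3, the receptor that predominates in adipocytes, ran from 217 to 637 in Ctrl_RT (median 382) and from 179.7 to 303 in MetR_CE (median 265), and was called lower although the groups overlapped (log2 fold change -0.67 ± 0.21 (SE), adjusted p = 0.0114), a call that was lost without Ctrl_RT replicate 1 (log2 fold change -0.53). The inhibitory receptors Adra2a (log2 fold change -1.09) and Hcar1 (-0.84), the latter a lactate receptor, were lower too. Gpr3, a receptor that signals to cAMP without a ligand, ran from 0 to 0.104 in Ctrl_RT (median 0.0280) and from 0.605 to 1.95 in MetR_CE (median 1.08). Every MetR_CE library lay above every control (log2 fold change 4.81 ± 0.54 (SE), adjusted p = 2.47e-07). Downstream, the adenylyl cyclase Adcy3 had a median of 38.5 normalized CPM in Ctrl_RT and 199 in MetR_CE (log2 fold change 2.43 ± 0.34 (SE), adjusted p = 2.9e-06), while Adcy7, a cyclase of immune cells, was called lower (log2 fold change -1.97 ± 0.27 (SE), adjusted p = 2.46e-06). The protein kinase A subunits Prkar2b (log2 fold change 1.22), Prkaca (0.88) and Prkar1a (0.62) and the stimulatory G protein Gnas (0.85) were higher, as were Nr4a3 (2.19) and Nr4a2 (1.31), immediate-early targets of cAMP.

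Routes of heat production that do not need UCP1 changed unevenly, with 7 of 18 genes called higher and 1 lower. Gk, glycerol kinase, which lets adipocytes re-esterify glycerol, ran from 6.95 to 57.6 in Ctrl_RT (median 15.3) and from 241 to 528 in MetR_CE (median 286.2) normalized CPM. No library overlapped (log2 fold change 3.83 ± 0.56 (SE), adjusted p = 5.9e-06). Of the calcium cycling genes, Atp2a2 (log2 fold change 0.88) and Atp2a3 (1.18), pumps of the endoplasmic reticulum, were higher. In the creatine cycle, the phosphatase Alpl was higher (log2 fold change 2.18 ± 0.35 (SE), adjusted p = 1.61e-05), Ckb, creatine kinase B, was not called (log2 fold change 0.34, adjusted p = 0.148), and Gamt, which makes creatine, was lower (log2 fold change -0.73 ± 0.21 (SE), adjusted p = 0.00787). Phospho1, a phosphatase, was higher (log2 fold change 3.41). Atp2a1, the calcium pump of skeletal muscle and 1 of the 14 muscle markers, ran from 0.104 to 1056 in Ctrl_RT (median 29.8) and from 3.41 to 1369.6 in MetR_CE (median 273.99) and was not called.

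Fatty acid oxidation rose as a block: 25 of 31 genes were called higher and 0 lower, and in 25 genes of the list the groups did not overlap (median log2 fold change 0.97). Cpt1b, the carnitine palmitoyltransferase of muscle and brown fat, ran from 0.923 to 8.08 in Ctrl_RT (median 2.68) and from 23.5 to 48.2 in MetR_CE (median 33.7) normalized CPM (log2 fold change 3.29 ± 0.47 (SE), adjusted p = 4.21e-06). Cpt1a, the liver form of the same enzyme, was not called (log2 fold change 0.43, adjusted p = 0.0938). The carnitine carrier Slc25a20 (log2 fold change 1.74), the dehydrogenases Acadvl (1.69), Acadl (1.27) and Acadm (1.03) and both subunits of the trifunctional protein, Hadha (1.44) and Hadhb (1.45), were higher. Acot1 and Acot2 are near-identical thioesterases whose reads can be split between them, so their separate changes are uncertain. Peroxisomal genes had 10 of 25 members called higher and 0 lower, led by Abcd3, an importer of acyl-CoA (log2 fold change 1.40 ± 0.19 (SE), adjusted p = 2.27e-06), and Pex14, part of the protein import pore (log2 fold change 1.105 ± 0.11 (SE), adjusted p = 8.47e-08).

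Lipolysis and lipid droplet genes had 9 of 17 members called higher and 0 lower (median log2 fold change 0.62). Pnpla2, the triglyceride lipase ATGL, ran from 1901 to 2662 in Ctrl_RT (median 1996) and from 3293 to 3548 in MetR_CE (median 3443) normalized CPM, and Lipe, hormone-sensitive lipase, from 1262 to 1676 in Ctrl_RT (median 1449.7) and from 2066 to 2437 in MetR_CE (median 2251). Both were raised modestly without overlap, by log2 fold changes of 0.63 (adjusted p = 0.00232) and 0.62 (adjusted p = 2.06e-05). Plin5, the droplet coat that tethers mitochondria, changed more (log2 fold change 2.30 ± 0.31 (SE), adjusted p = 1.58e-06). For uptake, Lpl, lipoprotein lipase, had a median of 5872 normalized CPM in Ctrl_RT and 10774 in MetR_CE (log2 fold change 0.95 ± 0.13 (SE), adjusted p = 2.16e-06), and its anchor Gpihbp1 (log2 fold change 0.96), the receptor Vldlr (1.23) and the transporter Cd36 (0.82) were higher, so that 5 of 16 uptake genes were called higher and 1 lower. Synthesis was less affected: 7 of 27 genes were called higher and 0 lower (median log2 fold change 0.38). Those 7 were the desaturase Scd3 (log2 fold change 3.23 ± 0.42 (SE), adjusted p = 1.36e-06) and enzymes of triglyceride assembly, Dgat1 (log2 fold change 0.95 ± 0.09 (SE), adjusted p = 3.72e-08), Agpat2 (log2 fold change 0.97), Agpat3 (0.82), Gpat3 (0.72), Lpin1 (1.05) and Gpam (0.59), whereas Fasn, Acly, Acaca and Srebf1 of fatty acid synthesis were not called. Gpam, at the threshold of 1.5-fold, was lost without any one of Ctrl_RT replicates 1, 2, 3, 6 and 7 and MetR_CE replicate 1 (log2 fold changes 0.50 to 0.58). Fasn, fatty acid synthase, ran from 12119 to 39473 in Ctrl_RT (median 19802) and from 12852 to 40933 in MetR_CE (median 31367) normalized CPM, and the groups overlapped (adjusted p = 0.155). Fasn was called higher only without Ctrl_RT replicate 5 (log2 fold change 0.72) or MetR_CE replicate 4 (0.66).

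The respiratory chain was raised by about the same factor in most subunits. Of 76 nuclear genes for its complexes, 63 were called higher and 0 lower (median log2 fold change 0.82), and in 59 of all 76 the groups did not overlap. Cycs, cytochrome c, changed most (log2 fold change 1.60 ± 0.21 (SE), adjusted p = 1.33e-06), followed by Uqcrc1, a core subunit of complex III, which ran from 215 to 339 in Ctrl_RT (median 227) and from 519 to 857 in MetR_CE (median 646) normalized CPM (log2 fold change 1.36 ± 0.19 (SE), adjusted p = 3.49e-06). The subunits not called were small accessory ones, such as Ndufa1 and Cox6a1, and Atp5g1, one of 3 genes for the same rotor subunit (log2 fold change -0.15). Of 13 genes on mitochondrial DNA, 9 were called higher (median log2 fold change 0.80). Of the 13, mt-Co2, mt-Co3, mt-Nd3, mt-Nd4l, mt-Atp6 and mt-Atp8 were listed under 4 normalized CPM in all 13 libraries. These have close copies in the nuclear genome with which reads can be shared, and their levels, those of the called mt-Co2 and mt-Co3 among them, are uncertain. mt-Nd1 had a median of 4128 normalized CPM in Ctrl_RT and 9474 in MetR_CE (log2 fold change 1.21 ± 0.18 (SE), adjusted p = 5.5e-06). The promoter of Uqcrc1 is shown because nuclear respiratory factor 1 (NRF1), a factor known for genes of the respiratory chain, recognises the motif GCGCANGCGC. This motif, searched on both strands, was in a promoter of 17 of 63 list members with a RefSeq promoter (27%). Of the 17, 14 were called higher, beside 63 of all 76 members of the list. Over all 27025 genes with a promoter it was found in 5.19%, and over all 32851 promoters in 4.6%. The window holds 250 bases before and 50 after the start of transcription (chr9:108936398-108936697, + strand, GRCm38.p6, RefSeq), and the capitals mark 2 matches.
Uqcrc1: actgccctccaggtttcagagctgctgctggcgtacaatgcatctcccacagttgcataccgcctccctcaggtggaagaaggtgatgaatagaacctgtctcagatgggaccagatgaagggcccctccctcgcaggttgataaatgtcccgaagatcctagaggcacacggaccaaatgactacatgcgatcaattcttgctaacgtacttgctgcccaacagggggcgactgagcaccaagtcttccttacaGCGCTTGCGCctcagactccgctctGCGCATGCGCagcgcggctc

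The TCA cycle and pyruvate entry had 21 of 25 genes called higher and 0 lower (median log2 fold change 1.05). Idh3a, a subunit of the isocitrate dehydrogenase of the cycle, ran from 238 to 456 in Ctrl_RT (median 333) and from 944 to 1464 in MetR_CE (median 1109.7) normalized CPM, and Cs, citrate synthase, from 480.2 to 907 in Ctrl_RT (median 523) and from 1293 to 1965 in MetR_CE (median 1595). Neither overlapped (log2 fold changes 1.75 and 1.46, adjusted p = 5.13e-07 and 4.79e-07). Of the genes for glucose uptake, glycolysis and glycogen, 18 of 28 were called higher and 0 lower (median log2 fold change 0.995). Ldhb, the lactate dehydrogenase subunit of oxidative tissues, had the largest change (log2 fold change 2.10 ± 0.31 (SE), adjusted p = 4.9e-06), and Slc2a4, the insulin-responsive transporter GLUT4, was higher (log2 fold change 0.80) with overlap. Pygm and Eno3, the muscle forms of phosphorylase and enolase, were not called (adjusted p = 0.935 and 0.994).

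Of 34 genes of the integrated stress response, 15 were called higher and 2 lower (median log2 fold change 0.56), the 2 being 4 without Ctrl_RT replicate 2. Fgf21, the hormone, ran from 0.224 to 0.677 in Ctrl_RT (median 0.330) and from 2.39 to 9.11 in MetR_CE (median 6.77) normalized CPM. Its lowest MetR_CE library held more than its highest control, at a level that was low in both groups (log2 fold change 4.03 ± 0.38 (SE), adjusted p = 4.99e-08). Trib3, a pseudokinase induced by ATF4, ran from 4.03 to 11.0 in Ctrl_RT (median 5.65) and from 12.0 to 34.8 in MetR_CE (median 19.9), again without overlap (log2 fold change 1.88 ± 0.23 (SE), adjusted p = 7.31e-07). Also higher were Mthfd2 of mitochondrial one-carbon metabolism (log2 fold change 1.66), Chac1, which degrades glutathione (1.66), Sesn2, a brake on mTORC1 (1.44), Atf5 (1.34) and Asns, asparagine synthetase (0.81). Atf4 itself and the serine enzyme Psat1 were not called (log2 fold changes 0.51 and -0.02), Atf4 passing 1.5-fold without Ctrl_RT replicate 5 (0.62) or MetR_CE replicate 2 (0.59). The members called lower were Nupr1 (log2 fold change -0.80 ± 0.10 (SE), adjusted p = 6e-07) and Aldh1l2, a mitochondrial folate enzyme (log2 fold change -2.66 ± 0.47 (SE), adjusted p = 5.85e-05). The C/EBP-ATF response element, through which ATF4 acts, was searched as TGATGNAA on both strands. It was found in a promoter of 9 of 27 members with a RefSeq promoter (33.3%), against 4.51% of all genes with one and 3.97% of all promoters. Of the 9, 5 were called higher and 1 lower, beside 15 and 2 of all 34 members of the list. The promoters of Fgf21 (chr7:45615441-45615740, - strand) and Trib3 (chr2:152344011-152344310, - strand; both GRCm38.p6) are shown as the members with a match and the largest changes. In both, the capitals mark the element, which reads on the opposite strand.
Fgf21: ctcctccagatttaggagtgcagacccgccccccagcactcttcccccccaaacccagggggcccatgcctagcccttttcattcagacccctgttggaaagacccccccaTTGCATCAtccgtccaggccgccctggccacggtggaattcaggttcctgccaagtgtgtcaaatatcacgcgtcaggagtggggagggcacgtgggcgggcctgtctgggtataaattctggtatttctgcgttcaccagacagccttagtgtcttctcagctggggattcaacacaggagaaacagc
Trib3: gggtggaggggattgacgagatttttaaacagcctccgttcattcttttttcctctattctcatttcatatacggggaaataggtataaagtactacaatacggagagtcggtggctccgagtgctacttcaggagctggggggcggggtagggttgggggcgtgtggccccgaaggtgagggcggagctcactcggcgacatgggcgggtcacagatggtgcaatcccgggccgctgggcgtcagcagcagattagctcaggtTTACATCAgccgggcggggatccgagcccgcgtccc

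Of 31 genes of methionine and sulfur metabolism, 5 were called higher and 3 lower (median log2 fold change 0.08), beside a background of 8.05% and 14.4%. Over the libraries left out in turn, the 5 became 3 without Ctrl_RT replicate 4 and the 3 became 1 without MetR_CE replicate 1. Mat2a, the methionine adenosyltransferase outside the liver, had a median of 221 normalized CPM in Ctrl_RT and 294.8 in MetR_CE, without overlap but under 1.5-fold (log2 fold change 0.45 ± 0.09 (SE), adjusted p = 0.000114). Cdo1, cysteine dioxygenase, was not called (log2 fold change 0.34), nor were Cth and Cbs, the transsulfuration enzymes (0.29 and -0.58). Slc6a6, the taurine transporter, was higher (log2 fold change 0.89 ± 0.12 (SE), adjusted p = 2e-06), and Tst, a sulfurtransferase of mitochondria, was lower (log2 fold change -1.097 ± 0.22 (SE), adjusted p = 0.000244). Mtr, methionine synthase, was also called lower (log2 fold change -0.59). Its call was lost without any one of Ctrl_RT replicates 3, 4 and 6 and MetR_CE replicates 1 and 6 (log2 fold changes -0.58 to -0.53). Mat1a, called higher, rested on 1 count in Ctrl_RT and 29 in MetR_CE, a ratio of 31.6 with an exact 95% interval of 5.24 to 1290 for counting error only, and was lost without MetR_CE replicate 5 (adjusted p = 0.092).

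Among 24 adipokines and secreted factors, 7 were called higher and 6 lower. Bmp8b, a growth factor of thermogenic fat, ran from 0 to 0.155 in Ctrl_RT (median 0.0560) and from 1.78 to 6.65 in MetR_CE (median 3.77) normalized CPM, a rise without overlap (log2 fold change 5.93 ± 0.89 (SE), adjusted p = 7.13e-06). Lep, leptin, ran from 83.1 to 328 in Ctrl_RT (median 239) and from 269 to 833 in MetR_CE (median 678), with overlap (log2 fold change 1.47 ± 0.33 (SE), adjusted p = 0.000759). Adipoq, adiponectin, and Cfd, adipsin, which adipocytes secrete in quantity, were not called (adjusted p = 0.92 and 0.649). Metrnl, a secreted factor of fat and muscle, was lower without overlap (log2 fold change -1.96 ± 0.30 (SE), adjusted p = 8.8e-06), as was Fst, follistatin, which binds activin (log2 fold change -1.38 ± 0.28 (SE), adjusted p = 0.000296). Nrg4, a neuregulin of brown fat, was higher (log2 fold change 0.82 ± 0.12 (SE), adjusted p = 6.2e-06).

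The clock genes shifted in opposite directions by arm of the loop, with 11 of 19 called higher and 2 lower. The repressors Per2, which ran from 3.87 to 14.0 in Ctrl_RT (median 6.86) and from 21.5 to 50.7 in MetR_CE (median 32.6) normalized CPM, Per3 (log2 fold change 1.41) and Per1 (1.22), the receptor Nr1d1 (1.17) and the output factors Hlf (2.03), Dbp (1.95) and Tef (1.44) were higher. The activators Arntl, also known as BMAL1, (log2 fold change -1.60 ± 0.21 (SE), adjusted p = 1.15e-06) and Npas2 (log2 fold change -2.86 ± 0.31 (SE), adjusted p = 1.55e-07) were lower, both without overlap. Clock was not called (log2 fold change -0.04). The paper states that the mice of all groups were killed in the morning, during the light phase. The exact time at which each mouse was killed was not used here, and its part in the clock values was not tested. Rbm3, an RNA-binding protein induced by cold, ran from 46.8 to 74.2 in Ctrl_RT (median 69.0) and from 102 to 133 in MetR_CE (median 123), and was higher (log2 fold change 0.90 ± 0.10 (SE), adjusted p = 1.37e-07). Of the chaperones, the mitochondrial Hspa9 (log2 fold change 1.43 ± 0.17 (SE), adjusted p = 4.24e-07) and Hspd1 (log2 fold change 0.76) were higher. Sdf2l1 (log2 fold change -1.86), Creld2 (-1.08) and Pdia4 (-0.73) of the endoplasmic reticulum were lower, as was Pdia6, a disulfide isomerase of the same compartment and one of the 5 lower genes with the smallest p (log2 fold change -1.06 ± 0.10 (SE), adjusted p = 4.37e-08). Hspa1a and Hspa1b, which share most of their reads, were both listed lower.

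Macrophage markers fell nearly without exception: 23 of 24 were called lower and 0 higher (median log2 fold change -2.55), and in 19 of the 24 no library overlapped. Lyz2, lysozyme, ran from 631 to 943 in Ctrl_RT (median 730.2) and from 69.3 to 180.1 in MetR_CE (median 97.4) normalized CPM. Adgre1, which encodes the macrophage antigen F4/80, ran from 67.0 to 128 in Ctrl_RT (median 80.4) and from 6.92 to 20.5 in MetR_CE (median 9.89). In both genes the highest MetR_CE library lay far below the lowest control (log2 fold change -2.85 ± 0.37 (SE), adjusted p = 1.46e-06 and log2 fold change -2.99 ± 0.36 (SE), adjusted p = 5.9e-07, respectively). Csf1r, the receptor that macrophages need to survive, changed less (log2 fold change -1.903 ± 0.32 (SE), adjusted p = 2.8e-05), and Cd5l, a secreted protein of tissue macrophages, changed most (log2 fold change -5.57 ± 0.89 (SE), adjusted p = 1.67e-05). Timd4 was the marker not called (log2 fold change -0.80, adjusted p = 0.129), and it was called lower without MetR_CE replicate 2 (-1.36). Markers of some other cell types moved alongside: 4 of 5 mast cell markers, 4 of 5 erythroid markers and 6 of 12 T cell markers were called lower. The last were 3 of 12 without Ctrl_RT replicate 6 and 4 of 12 without Ctrl_RT replicate 7. The summed T cell markers ran from 10.6 to 52.6 normalized CPM in Ctrl_RT and from 4.72 to 7.35 in MetR_CE. The 52.6 was that of Ctrl_RT replicate 7, and the other controls reached at most 17.1. The part of the share of each cell type in the results was not tested. B cell markers did not fall in sum, at 39.4 to 130 normalized CPM in Ctrl_RT and 107 to 322 in MetR_CE, mainly through Ighm, the heavy chain of IgM, which was higher (log2 fold change 1.49).

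Chemokines, cytokines and their receptors had 33 of 40 members called lower and 0 higher (median log2 fold change -2.82). Ccl8, a ligand that attracts monocytes, ran from 37.5 to 157 in Ctrl_RT (median 50.1) and from 0.403 to 3.09 in MetR_CE (median 2.21) normalized CPM, without overlap (log2 fold change -5.14 ± 0.82 (SE), adjusted p = 1.72e-05). Its relatives Ccl6 (log2 fold change -2.84) and Ccl9 (-3.07) and the receptor Ccr2 (-2.96) were lower as well. Several of the largest folds rested in part on Ctrl_RT replicate 7. Cxcl5, a ligand for neutrophils, had 645 counts over Ctrl_RT, 557 of them in that library, and 0 over MetR_CE, and was at least 197-fold lower against a floor of 3 counts over the group. Without that library, 88 counts were left and the bound was 33.4-fold. Cxcl10, an interferon-induced chemokine, ran from 2.79 to 224 in Ctrl_RT (median 3.54), where replicate 7 alone gave the highest value, and from 1.05 to 4.25 in MetR_CE (median 1.78). Its log2 fold change of -4.07 shrank to -1.16 without that library (adjusted p = 0.00058 and 0.00462), that of Ccl2 from -4.26 to -3.21, and Tnf was no longer called (adjusted p = 0.0136 with and 0.41 without it). Without replicate 7, 30 of the 40 were called lower and 1 higher. Cxcl12, made by stromal cells, was not called with all libraries (log2 fold change 0.13).

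Interferon-stimulated genes had 35 of 36 members called lower and 0 higher (median log2 fold change -2.06), and 28 of the 36 did not overlap. Without Ctrl_RT replicate 7, 33 were called lower and the median was -1.54. Oas3 and Oas1a make the signal that starts RNA decay in infected cells. Oas3 ran from 7.52 to 105 in Ctrl_RT (median 20.4) and from 0.403 to 2.62 in MetR_CE (median 0.658) normalized CPM, without overlap (log2 fold change -4.98 ± 0.67 (SE), adjusted p = 1.86e-06, and log2 fold change -4.14 without replicate 7). Irf7, a transcription factor that amplifies interferon signals, ran from 44.8 to 272.8 in Ctrl_RT (median 81.7) and from 19.8 to 25.0 in MetR_CE (median 22.1), and was lower (log2 fold change -2.23 ± 0.32 (SE), adjusted p = 5.25e-06). Stat2, which carries the signal to the nucleus, was lower by a log2 fold change of -1.47. Without replicate 7, the log2 fold changes of Irf7 and Stat2 were -1.77 and -1.21. Rsad2, which encodes viperin, ran from 24.1 to 325 in Ctrl_RT (median 28.5), the highest again being replicate 7, and its log2 fold change of -2.05 came to -0.98 without it. Slfn4, of a family of interferon-induced proteins, ran from 7.87 to 961 in Ctrl_RT (median 26.5) and from 0.363 to 1.78 in MetR_CE (median 0.767), and its log2 fold change moved from -7.53 to -4.68, still without overlap. Genes of the families Ifit, Oas, Slfn and Ifi200 have close copies, and their single values are uncertain to that extent. The interferon-stimulated response element was searched as GAAANNGAAA on both strands. It was in a promoter of 15 of 26 members with a RefSeq promoter (57.7%), against 3.99% of all genes with one and 3.44% of all promoters. All 15 were called lower, as were 35 of all 36 members of the list. The promoters of Oas3 (chr5:120777610-120777909, - strand) and Oas1a (chr5:120907476-120907775, - strand; both GRCm38.p6) are shown with the element in capitals, in Oas1a as 2 overlapping matches.
Oas3: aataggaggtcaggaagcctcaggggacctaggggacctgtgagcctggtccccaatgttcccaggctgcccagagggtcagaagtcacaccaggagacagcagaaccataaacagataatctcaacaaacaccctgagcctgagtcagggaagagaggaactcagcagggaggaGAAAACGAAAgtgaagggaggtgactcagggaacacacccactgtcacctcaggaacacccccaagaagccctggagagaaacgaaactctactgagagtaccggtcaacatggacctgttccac
Oas1a: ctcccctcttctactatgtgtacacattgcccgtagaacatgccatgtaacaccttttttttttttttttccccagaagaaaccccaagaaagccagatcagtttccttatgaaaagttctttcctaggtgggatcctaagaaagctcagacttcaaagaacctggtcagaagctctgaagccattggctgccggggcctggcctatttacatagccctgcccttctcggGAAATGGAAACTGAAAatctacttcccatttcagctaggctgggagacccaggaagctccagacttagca

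Antigen presentation had 15 of 18 genes called lower and 0 higher, and 17 of the 18 did not overlap. The class II genes, which antigen-presenting cells use, were lower by log2 fold changes of -1.40 for H2-Ab1 (adjusted p = 4.4e-06) and -1.34 for Cd74, the invariant chain (adjusted p = 8.09e-06), and their regulator Ciita by -1.73. The class I genes, which most cells carry, moved less, H2-K1 by -0.75 and H2-D1 by -0.57, the latter just under the threshold (over it without Ctrl_RT replicate 5 or 7, at -0.60 and -0.60), and reads of the H2 genes can be shared among them. Complement had 17 of 21 genes called lower and 1 higher. C3, the central component, which fat also makes, ran from 1359 to 2639.7 in Ctrl_RT (median 1999) and from 539 to 1312 in MetR_CE (median 741) normalized CPM, without overlap (log2 fold change -1.34 ± 0.25 (SE), adjusted p = 8.47e-05). The member called higher was Cd59a, an inhibitor of the membrane attack complex (log2 fold change 0.69 ± 0.15 (SE), adjusted p = 0.000637).

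**Figure D4:**
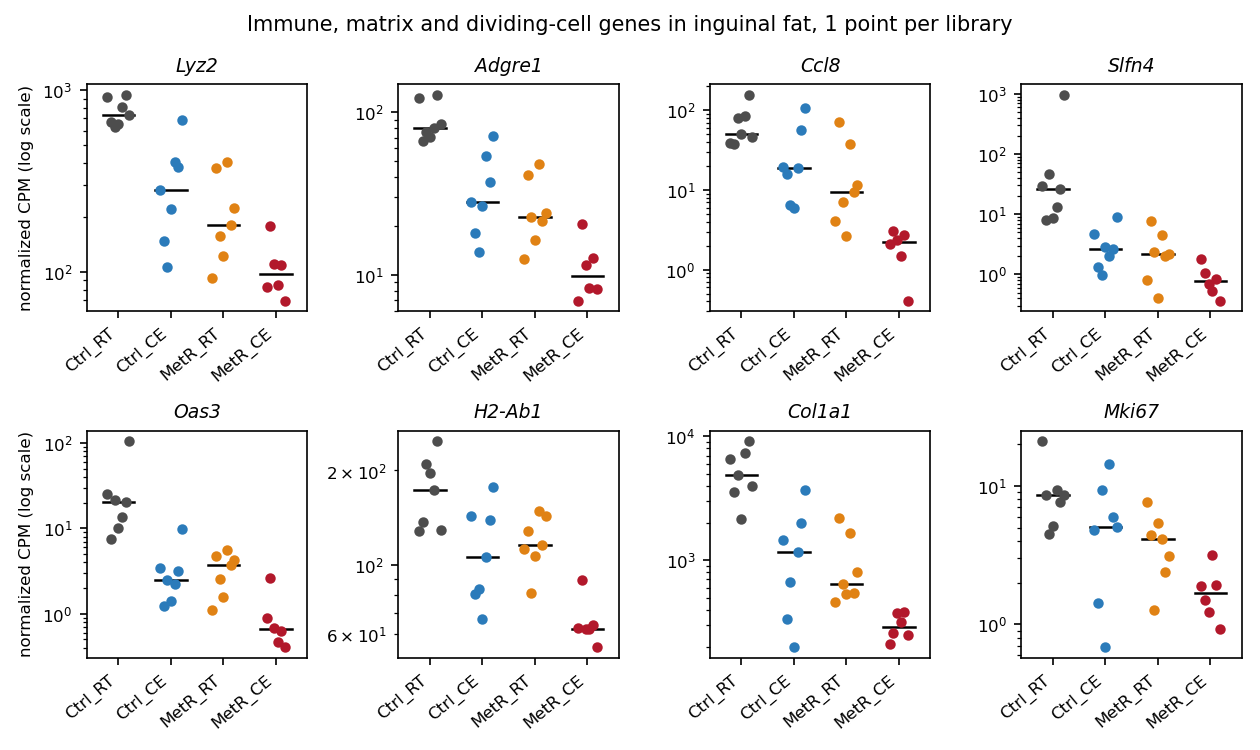
Normalized CPM of immune, interferon, matrix and proliferation genes (log axis) in each library of the 4 iWAT groups, 1 point per mouse with the median as a line. MetR_CE lies below Ctrl_RT in the panels of Lyz2, Adgre1 and Col1a1, and Ctrl_RT replicate 7 is the high control of the interferon panels.

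Extracellular matrix genes had 33 of 44 members called lower and 1 higher (median log2 fold change -1.73), with 27 of the 44 below all controls. Fibrillar collagens were among the genes called lower. Col1a1 ran from 2154 to 9120.5 in Ctrl_RT (median 4915) and from 212 to 382 in MetR_CE (median 290.5) normalized CPM, and Col3a1 from 3630.0 to 12541 in Ctrl_RT (median 7363) and from 438 to 770.0 in MetR_CE (median 590.4). No library overlapped in either (log2 fold change -4.16 ± 0.56 (SE), adjusted p = 1.98e-06 and log2 fold change -3.70 ± 0.46 (SE), adjusted p = 7.68e-07, respectively). Fbn1, fibrillin of elastic microfibrils (log2 fold change -3.30), Fn1, fibronectin (-2.67), and Postn, periostin (-2.54), were lower, and Timp1, an inhibitor of matrix proteases, was lower by -5.71 (adjusted p = 3.11e-07). The basement membrane collagens Col4a1 and Col4a2, which adipocytes and vessels make, were not called (log2 fold changes -0.07 and 0.30). Timp3 was the member called higher (log2 fold change 0.75 ± 0.12 (SE), adjusted p = 2.77e-05). Of 20 genes of progenitors and fibroblasts, 16 were called lower and 3 higher. Pdgfra, the receptor that marks progenitors, ran from 102 to 176 in Ctrl_RT (median 119) and from 32.5 to 67.6 in MetR_CE (median 39.9), without overlap (log2 fold change -1.56 ± 0.23 (SE), adjusted p = 7.62e-06), and Dpp4, of an early progenitor state, was lower with overlap (log2 fold change -1.76 ± 0.44 (SE), adjusted p = 0.00215). F3, tissue factor, went the other way, from a median of 34.999 to 97.4 (log2 fold change 1.62 ± 0.13 (SE), adjusted p = 8.68e-09). So did Mest, an imprinted gene tied to fat expansion, which ran from 2.77 to 27.01 in Ctrl_RT (median 12.1) and from 98.8 to 408 in MetR_CE (median 307), with no overlap (log2 fold change 4.39 ± 0.83 (SE), adjusted p = 0.000124).

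Proliferation genes had 26 of 29 members called lower and 0 higher (median log2 fold change -1.35). Mki67, the Ki-67 antigen, ran from 4.52 to 20.98 in Ctrl_RT (median 8.61) and from 0.927 to 3.16 in MetR_CE (median 1.69) normalized CPM, without overlap (log2 fold change -2.37 ± 0.50 (SE), adjusted p = 0.000455). Top2a, which untangles replicated DNA (log2 fold change -2.51), and the mitotic cyclins Ccnb1 (-2.18, or -1.57 without Ctrl_RT replicate 1) and Ccnb2 (-2.22) were lower. Tyms, Mcm7 and Pcna, which act in DNA synthesis, were not called. Endothelial markers did not follow the immune and stromal markers: 4 of 12 were called higher and 0 lower.

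Outside these lists, the largest rises among genes with a mean of at least 1 normalized CPM were in genes that controls hardly expressed. Kcnh6, a potassium channel, was counted 3 times over the 7 Ctrl_RT libraries and 721 times over the 6 MetR_CE libraries, a ratio of 262 with an exact 95% interval of 89.3 to 1270 for counting error. Its fitted log2 fold change was 7.47, or 6.62 without MetR_CE replicate 4. Lgr6, a receptor for R-spondins, ran from 0 to 1.38 in Ctrl_RT (median 0.220) and from 21.2 to 66.9 in MetR_CE (median 33.8) normalized CPM (log2 fold change 6.01 ± 0.82 (SE), adjusted p = 2.12e-06). Sgk2, a kinase (log2 fold change 6.29, or 6.99 without Ctrl_RT replicate 1), Fam131c (6.41), Kng2, a kininogen (5.05), Pigr, the polymeric immunoglobulin receptor (4.59), Cend1 (4.39) and Cpn2, a subunit of carboxypeptidase N (3.98), were raised likewise. Among the largest falls outside the interferon and chemokine genes were Fbn2, a fibrillin (log2 fold change -6.67 ± 0.99 (SE), adjusted p = 6.31e-06), Clec4e, a receptor of myeloid cells (-6.55, or -4.24 without Ctrl_RT replicate 7 and -7.25 without MetR_CE replicate 5), S100a9, a protein of neutrophils (-5.51, or -3.91 without it), Ms4a4c (-5.84, or -4.33 without it), Cd300lf (-5.28, or -3.90 without it), Saa3, an acute phase protein (-5.09), Cthrc1 (-5.45), Il1rn, which blocks interleukin 1 (-5.37, or -3.94 without Ctrl_RT replicate 7), Mfap4 of microfibrils (-5.02) and Tnfrsf11b, osteoprotegerin (-5.03, or -5.99 without MetR_CE replicate 5). The smallest p belonged in part to changes of moderate size. Acot6, a thioesterase, ran from 4.53 to 5.62 in Ctrl_RT (median 5.41) and from 10.5 to 14.4 in MetR_CE (median 12.2) (log2 fold change 1.24 ± 0.09 (SE), adjusted p = 1.06e-09), and Mocs2, which builds the molybdenum cofactor, from 68.0 to 76.4 in Ctrl_RT (median 71.8) and from 128 to 152 in MetR_CE (median 141) (log2 fold change 0.96 ± 0.07 (SE), adjusted p = 1.92e-09). N6amt1, a methyltransferase (log2 fold change 0.97), and Optn, optineurin (1.28), rose, and Prr13 (-1.42), Vcan, the proteoglycan versican (-3.23), Zfp36l1, an RNA decay factor (-0.91), and Bmper (-1.63) fell.

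To ask what the combination added, MetR_CE was compared with each stimulus alone. Far fewer genes differed. Against Ctrl_CE, 189 genes were called higher (0.715%) and 410 lower (1.55%), and against MetR_RT 159 were higher (0.602%) and 339 lower (1.28%). These counts rested on single libraries more than the contrast with Ctrl_RT did: without MetR_CE replicate 4 they were 57 and 78 against Ctrl_CE, and 72 and 106 against MetR_RT. Thermogenic effectors had 1 of 20 members called against Ctrl_CE and 2 of 20 against MetR_RT. Ucp1 ran from 530.1 to 4481 in Ctrl_CE (median 2554) and from 210.2 to 3598 in MetR_RT (median 1145) normalized CPM, and MetR_CE was not called above either (log2 fold change 0.50, adjusted p = 0.754, and 0.97, adjusted p = 0.446). Dio2 ran from 22.3 to 269 in Ctrl_CE (median 106) and from 2.08 to 39.4 in MetR_RT (median 11.8). MetR_CE was above MetR_RT (log2 fold change 2.90, adjusted p = 0.00172) and was not called against Ctrl_CE (adjusted p = 0.814). Ppargc1a gave the same pair of calls (log2 fold change 1.72, adjusted p = 0.00232 against MetR_RT, and adjusted p = 0.773 against Ctrl_CE). The same held for Gpr3, Nr4a2 and Nr4a3, with log2 fold changes over MetR_RT of 1.80, 0.83 and 2.90, and for Rbm3 (0.68). The difference between Ctrl_CE and MetR_RT was not tested. The calls over MetR_RT were kept with each of the 13 libraries of MetR_CE and Ctrl_RT left out in turn and without the 5 muscle-rich libraries. No library of Ctrl_CE or MetR_RT was left out singly. For Ucp1, Dio2, Ppargc1a and Fgf21, the lowest libraries of these groups were Ctrl_CE replicate 7 and MetR_RT replicate 5. MetR_RT replicate 5 was left out only together with the other muscle-rich libraries. What either of them alone added to the calls was not tested. Adrb3 was lower than in MetR_RT (log2 fold change -0.78, adjusted p = 0.0274), a call lost without any one of MetR_CE replicates 4 and 5 (adjusted p from 0.0727 to 0.0847). The clock genes Per1, Per2, Ciart and Hlf were higher and Arntl and Npas2 lower than in MetR_RT, the call of Hlf being lost without MetR_CE replicate 4 (adjusted p = 0.0505). The calls of Per1 and Ciart were lost without the 5 muscle-rich libraries (adjusted p = 0.119 and 0.0623). Against Ctrl_CE, 0 clock genes were called.

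Of 34 stress genes, 7 were called above MetR_RT, or 4 without MetR_CE replicate 4, against 0.602% of all genes. Of 19 clock genes, 4 were. Fgf21 ran from 1.29 to 4.51 in Ctrl_CE (median 3.03) and from 0.174 to 1.85 in MetR_RT (median 1.23) normalized CPM, against 6.77 at the median of MetR_CE. It was higher than in MetR_RT (log2 fold change 2.51, adjusted p = 0.000195) and narrowly higher than in Ctrl_CE (log2 fold change 1.19, adjusted p = 0.0445), a call lost without any one of Ctrl_RT replicates 3 and 4 and MetR_CE replicates 1, 3, 4, 5 and 6 (adjusted p from 0.0503 to 0.119). Trib3 ran from 4.45 to 11.1 in Ctrl_CE (median 9.58) and from 6.95 to 13.4 in MetR_RT (median 10.5), and was called higher against both Ctrl_CE (log2 fold change 1.34, adjusted p = 0.00442) and MetR_RT (log2 fold change 1.07, adjusted p = 0.00732), also with each of the 13 libraries of MetR_CE and Ctrl_RT left out in turn. Gdf15, another stress hormone, was higher than in MetR_RT (log2 fold change 3.53, adjusted p = 0.00174). Slc3a2, the heavy chain of amino acid transporters, was also above MetR_RT (log2 fold change 0.76, adjusted p = 0.00537). So were Sesn2 (0.90), lost without any one of MetR_CE replicates 2, 4 and 5 (adjusted p from 0.0566 to 0.0878), Stc2 (1.03), lost without any one of MetR_CE replicates 3, 4, 5 and 6 (adjusted p from 0.0569 to 0.0849), and Ddit3, the stress factor CHOP (0.60), which was under 1.5-fold without MetR_CE replicate 4 or 6 (0.50 and 0.57). Sesn2, Stc2 and Ddit3 also lost these calls without the 5 muscle-rich libraries (adjusted p = 0.154, 0.143 and 0.0995).

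Some immune and matrix genes were lower than with either stimulus. Ctrl_CE replicate 7 held the highest Lyz2 and Adgre1 of its group (682.5 and 71.1 normalized CPM). MetR_RT replicate 5 did so in its own group (402.9 and 48). Of the macrophage markers, 16 of 24 were called lower than in Ctrl_CE and 5 than in MetR_RT, but over the libraries left out in turn these counts ran from 3 (without MetR_CE replicate 4) to 18 and from 0 (without MetR_CE replicate 1) to 15. Adgre1 ran from 13.8 to 71.1 in Ctrl_CE (median 27.98) and from 12.5 to 47.998 in MetR_RT (median 22.8) normalized CPM, and MetR_CE was below both (log2 fold change -1.65, adjusted p = 0.0142, and log2 fold change -1.23, adjusted p = 0.035, respectively), the latter call lost without any one of MetR_CE replicates 1, 3, 4, 5 and 6 (adjusted p from 0.0608 to 0.0957). Of the genes of antigen presentation, Ciita was lower by log2 fold changes of -1.14 against Ctrl_CE (adjusted p = 0.00586) and -1.05 against MetR_RT (adjusted p = 0.00389), and H2-DMb1, which loads peptides onto class II, by -0.90 and -0.86. Both kept these calls with each of the 13 libraries left out in turn, and both lost that against MetR_RT without the 5 muscle-rich libraries (adjusted p = 0.052 and 0.079). The class II chain H2-Ab1 was lower by -0.79 and -0.86, the first call lost without any one of MetR_CE replicates 1, 3, 4, 5 and 6 (adjusted p from 0.0524 to 0.0747). Without MetR_CE replicate 4, 2 of 18 genes of antigen presentation were called lower than in Ctrl_CE in place of 7, and 5 in place of 8 than in MetR_RT. Col1a1 ran from 198 to 3688 in Ctrl_CE (median 1173) and from 456 to 2185 in MetR_RT (median 645), and was lower by log2 fold changes of -2.18 (adjusted p = 0.0214) and -1.70 (adjusted p = 0.0441). Its call against Ctrl_CE was lost without MetR_CE replicate 4 (adjusted p = 0.0566), and that against MetR_RT was lost without any one of Ctrl_RT replicate 3 and MetR_CE replicates 1, 2, 3, 4, 5 and 6 (adjusted p from 0.0515 to 0.0941). Without the 5 muscle-rich libraries, Adgre1, H2-Ab1 and Col1a1 lost their calls against MetR_RT (adjusted p = 0.213, 0.102 and 0.18), and H2-Ab1 and Col1a1 those against Ctrl_CE (adjusted p = 0.0643 and 0.0525).

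In the same direction against all 3 other groups, 23 genes were called higher and 110 lower. Without MetR_CE replicate 4 these counts were 4 and 17. Among the 23, Trib3, Kcnh6 (log2 fold change 2.62 over Ctrl_CE and 4.32 over MetR_RT) and Zim1 (2.21 and 1.45) kept both of these calls with each of the same 13 libraries left out in turn. With the same order of values, the 23 also held Fgf21, Acot2 (1.15 and 1.24), Ivns1abp (1.23 and 0.60), Timp4, a protease inhibitor (1.70 and 1.08), Fgf1, a growth factor of fat remodelling (0.67 and 0.69), the desaturase Scd3 (1.46 and 1.81) and Hr, a nuclear corepressor (1.01 and 1.05), of which Ivns1abp, Timp4, Fgf1 and Hr were picked after their values were seen. Each of these 7 lost at least 1 of its calls without MetR_CE replicate 4, the adjusted p of the lost calls running from 0.0586 to 0.16. The values of Acot2 are uncertain besides, as its reads can be split with Acot1. Mest was above Ctrl_CE (log2 fold change 3.52, adjusted p = 0.0184) and not called against MetR_RT (adjusted p = 0.134), where it ran from 4.23 to 287.7 in MetR_RT (median 29.8). Among the 110 were Ccl8 (-4.05 and -3.36) and Col3a1 (-1.92 and -1.41), the last lost without any one of Ctrl_RT replicate 3 and MetR_CE replicates 1, 2, 3, 4, 5 and 6 (adjusted p from 0.0533 to 0.0973) against MetR_RT. Rtl3 (-2.62 and -2.71), Padi4, which citrullinates proteins in neutrophils (-2.07 and -1.96), and Wfdc17 (-2.59 and -1.87) belonged to the 10 with the largest changes against Ctrl_RT as well. The call of Rtl3 against Ctrl_CE was lost without any one of Ctrl_RT replicates 1, 2, 3 and 4 and MetR_CE replicates 1, 3, 4, 5 and 6 (adjusted p from 0.0506 to 0.113) and that against MetR_RT lost without any one of MetR_CE replicates 1, 4, 5 and 6 (adjusted p from 0.0578 to 0.0819). For Padi4 these were lost without any one of MetR_CE replicates 4, 5 and 6 (adjusted p from 0.062 to 0.0789) and lost without any one of MetR_CE replicates 4, 5 and 6 (adjusted p from 0.0561 to 0.074), and the call of Wfdc17 against MetR_RT was lost without any one of MetR_CE replicates 1, 3, 4, 5 and 6 (adjusted p from 0.0633 to 0.104). Tmem26, a membrane protein used as a beige marker, was also among them. It ran from 5.73 to 15.7 in Ctrl_RT (median 7.78) and from 0.161 to 0.617 in MetR_CE (median 0.445) normalized CPM and fell against Ctrl_CE (log2 fold change -2.24, adjusted p = 0.0214) and MetR_RT (log2 fold change -2.20, adjusted p = 0.0146), the first call lost without MetR_CE replicate 4 (adjusted p = 0.0654). Without the 5 muscle-rich libraries, Acot2, Ivns1abp, Timp4, Fgf1, Scd3, Hr, Ccl8, Col3a1, Rtl3, Padi4, Wfdc17 and Tmem26 lost their calls against MetR_RT (adjusted p from 0.0508 to 0.204), and Scd3, Hr, Rtl3, Padi4 and Tmem26 those against Ctrl_CE (adjusted p from 0.0592 to 0.118).

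The interaction of diet and temperature asked whether the combined change differed from the sum of the separate changes on the log2 scale. It was called positive in 135 genes (0.511%) and negative in 300 (1.14%). Among the lists, negative calls were most frequent in glucose use (11 of 28), the TCA cycle and pyruvate entry (7 of 25), fatty acid and triglyceride synthesis (6 of 27) and the nuclear respiratory chain (10 of 76). In each gene so called the combination was under the sum of both single changes, and most members of each list were not called. These counts rested on single libraries. Over the libraries left out in turn, glucose use ran from 3 (without MetR_CE replicate 4) to 15 (without Ctrl_RT replicate 5), the TCA cycle from 3 (without MetR_CE replicate 5) to 15 (without Ctrl_RT replicate 5), synthesis from 2 (without MetR_CE replicate 4) to 17 (without Ctrl_RT replicate 5) and the respiratory chain from 2 (without MetR_CE replicate 2) to 39 (without MetR_CE replicate 1). Over all genes, they were 48 positive and 121 negative without MetR_CE replicate 4, and 268 and 633 without Ctrl_RT replicate 5. Fasn had medians of 19802, 45530.0, 38433 and 31367 normalized CPM in Ctrl_RT, Ctrl_CE, MetR_RT and MetR_CE (log2 interaction -1.47, adjusted p = 0.034), and its call was lost without any one of Ctrl_RT replicates 1, 3, 6 and 7 and MetR_CE replicates 2, 3, 4 and 5 (adjusted p from 0.051 to 0.0643). Either stimulus alone gave a higher median than both together. Gypc, glycophorin C of the membrane skeleton, had the smallest p of the negative calls and medians of 47.4, 63.2, 62.7 and 46.98 in the same order (log2 interaction -0.91, adjusted p = 0.000762). It was not called between MetR_CE and Ctrl_RT (adjusted p = 0.543). Kmt5a, a histone methyltransferase (log2 interaction -0.94), Odf3l1 (-1.39) and Ppp1r1a, an inhibitor of protein phosphatase 1 (-0.97), had a similar course in their medians, with MetR_CE not called against Ctrl_RT. Rab3a, a GTPase of vesicle release, was raised in MetR_CE over Ctrl_RT (log2 fold change 1.02), and its medians with a single stimulus were 23.2 and 20.5 against 21.6 with both (log2 interaction -1.05, adjusted p = 0.00688). Without the 5 muscle-rich libraries, the interaction of Fasn was not called either (adjusted p = 0.102).

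Positive interactions had more than one course. Il4ra, a receptor chain for interleukin 4, had medians of 68.8, 33.6, 32.7 and 31.9 normalized CPM, so that either stimulus lowered it and both together lowered it no further (log2 interaction 1.16, adjusted p = 0.00528). Gnal, a stimulatory G protein, followed the same course (log2 interaction 2.52, adjusted p = 0.00854). Zim1, an imprinted zinc finger gene, had medians of 2.50, 1.27, 2.26 and 6.32, and was highest with both stimuli (log2 interaction 2.33, adjusted p = 0.00777). Vnn1, a pantetheinase, had medians of 24.1, 4.39, 10.3 and 22.9, so that the combination was above Ctrl_CE (log2 fold change 2.12, adjusted p = 0.0093) and was not called against Ctrl_RT (adjusted p = 0.909, log2 interaction 3.07, adjusted p = 0.00854). St6galnac5, a sialyltransferase, was also above Ctrl_CE (log2 fold change 1.21, adjusted p = 0.00181). Of the list members, Gdf15 had the largest positive interaction of the stress genes, with medians of 1.55, 1.41, 0.648 and 3.28 (log2 interaction 3.82, adjusted p = 0.0158). It was not called against Ctrl_RT with all libraries (adjusted p = 0.0591) and was called without Ctrl_RT replicate 1 (adjusted p = 0.00221). Hcar1 (log2 interaction 1.32, adjusted p = 0.0243) was called positive as well. The call of Hcar1 was lost without the 5 muscle-rich libraries (adjusted p = 0.0583).

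**Figure D5:**
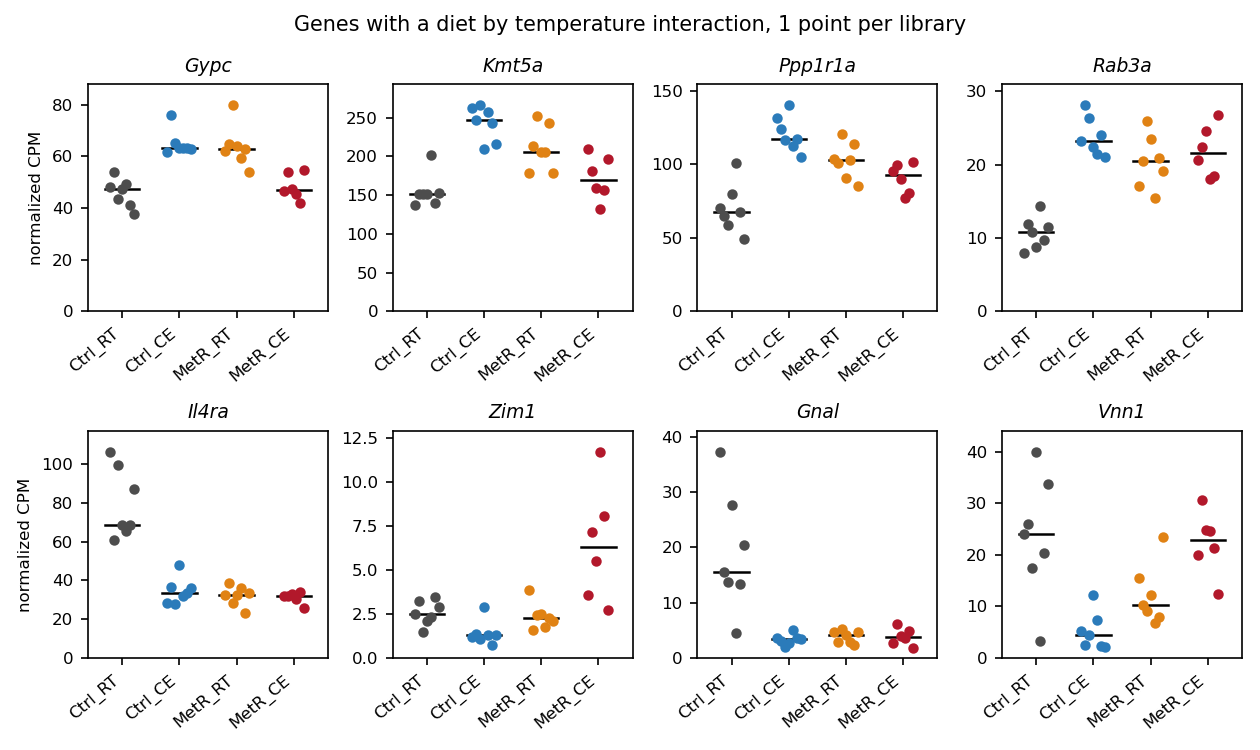
Normalized CPM (y axis, linear from 0) in each library of the 4 iWAT groups for 4 genes with a negative and 4 with a positive interaction, 1 point per mouse with the median as a line. Gypc is near 47.4 in Ctrl_RT and 46.98 in MetR_CE and near 63.2 with either stimulus alone, whereas Zim1 is highest in MetR_CE.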

How the data were processed

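Total RNA of inguinal fat was poly(A)-selected and sequenced as paired-end reads. The authors deposited raw counts per gene (whole numbers, 1 column per library, not pooled), and per the submitters' processing notes used STAR 2.7.9a, featureCounts 2.0.3 and Salmon 1.9.0 on build mm10. The name of the table refers to Salmon, the sources used here state no more on which counter made it, and a strand setting is not given in them, so overlapping and antisense genes cannot be told apart. All 27 iWAT libraries were fitted together with edgeR 4.0.16 (R 4.3.3; TMM factors, quasi-likelihood F-test) on diet, temperature and their interaction, and 26428 genes with at least 10 counts in total were tested. Called means a Benjamini-Hochberg adjusted p under 0.05 over all genes tested and at least 1.5-fold (0.585 on the log2 scale). Precision is limited by 6 and 7 mice per group at 17215367 to 33141066 counts per library. Brown fat columns of the same table (27) and the liver and epididymal fat tables were not used. Gene symbols were paired with 51948 of 56884 identifiers.

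The members, gene lists and tests were chosen with earlier results of these data known. Of 842 list members, 839 were tested. Other genes are named by rule among those called: without overlap between MetR_CE and Ctrl_RT and with a mean of at least 1 normalized CPM, the 15 largest changes and 5 smallest p in each direction, the 10 largest called against all groups, and the 5 interactions with the smallest p in each direction. Genes named outside it were picked after their values were seen. Some genes of the lists and of this rule are not reported here. Promoters (250 bases before to 50 after the start) came from RefSeq on GRCm38.p6. Of 15 motif patterns searched, the 3 with printed promoters were picked after the matches were seen. The others were the cAMP response element in full and short form, E-box, D-box, DR1, estrogen-related receptor element, PU.1 site, ER stress element, cell cycle homology region, NF-kB site, CCAAT box and a short nuclear receptor site. The alternatives were RLE scaling, 2 other filters, robust dispersions, glmTreat, DESeq2 1.42.0 with and without apeglm 1.24.0, a replicate block, only the compared groups, and each library of MetR_CE and Ctrl_RT left out in turn. The fit was tested on simulated data. The exact intervals of count ratios are 95% Clopper-Pearson and cover counting error only.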

Additional observations from a re-analysis of the deposited data

Results flagged for a closer look

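A library stood apart from the rest of its group where its gap to the nearest other library, divided by the whole range of the group on the log2 scale, passed Dixon's 95% critical value. This happened in 34 of 475 sets of values of the genes named here, or 7.16%, where chance gives about 1 in 20 for independent sets. The sets come from the same 13 libraries, and many of the genes were named for their results. The 7.16% therefore does not measure an excess over chance. The cause of these gaps was not tested. For Mat1a in Ctrl_RT the gap rests on 1 count in 1 library with 0 in the others, so that its ratio is 1 by construction.

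Ctrl_RT replicate 1 was highest for Ccnb1 with 5.38 normalized CPM against 0.801 to 1.61 in the others (ratio 0.653) and Gdf15 with 9.29 normalized CPM against 0.834 to 2.46 in the others (ratio 0.573). Ctrl_RT replicate 1 was lowest for Nr1d1 with 68.4 normalized CPM against 97.1 to 123 in the others (ratio 0.595). Ctrl_RT replicate 2 was highest for Trib3 with 11.0 normalized CPM against 4.03 to 6.04 in the others (ratio 0.601). Ctrl_RT replicate 2 was lowest for Ucp1 with 1.27 normalized CPM against 47.5 to 449 in the others (ratio 0.608). Ctrl_RT replicate 4 was lowest for Hspa1b with 3.72 normalized CPM against 5.63 to 7.55 in the others (ratio 0.582) and Saa3 with 3.56 normalized CPM against 7.91 to 12.7 in the others (ratio 0.6247). Ctrl_RT replicate 5 was highest for Agpat2 with 1599 normalized CPM against 733 to 1000.0 in the others (ratio 0.601), Cs with 907 normalized CPM against 480.2 to 595 in the others (ratio 0.662), Kmt5a with 202 normalized CPM against 137 to 153 in the others (ratio 0.707), Mat1a with 0.0521 normalized CPM against 0 to 0 in the others (ratio 1), Odf3l1 with 13.0 normalized CPM against 6.46 to 7.66 in the others (ratio 0.758), Pex14 with 61.9 normalized CPM against 43.9 to 50.8 in the others (ratio 0.576) and Scd3 with 1.82 normalized CPM against 0.330 to 0.723 in the others (ratio 0.586). Ctrl_RT replicate 5 was lowest for Vnn1 with 3.28 normalized CPM against 17.4 to 40.01 in the others (ratio 0.662). Ctrl_RT replicate 6 was highest for Csf1r with 377 normalized CPM against 207 to 255 in the others (ratio 0.655). Ctrl_RT replicate 6 was lowest for Alpl with 2.38 normalized CPM against 4.31 to 6.28 in the others (ratio 0.606). Ctrl_RT replicate 7 was highest for Cxcl10 with 224 normalized CPM against 2.79 to 10.7 in the others (ratio 0.701), Ms4a4c with 87.0 normalized CPM against 3.08 to 10.6 in the others (ratio 0.637), Rsad2 with 325 normalized CPM against 24.1 to 69.1 in the others (ratio 0.595) and Slfn4 with 961 normalized CPM against 7.87 to 46.1 in the others (ratio 0.634). Ctrl_RT replicate 7 was lowest for Cfd with 3738 normalized CPM against 5942 to 7757 in the others (ratio 0.635) and Zfp36l1 with 109.9 normalized CPM against 128 to 141 in the others (ratio 0.606).

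MetR_CE replicate 1 was highest for mt-Nd1 with 13280.0 normalized CPM against 8421 to 9784 in the others (ratio 0.671). MetR_CE replicate 1 was lowest for Atp2a1 with 3.41 normalized CPM against 193 to 1370.0 in the others (ratio 0.670) and Timp3 with 115 normalized CPM against 171 to 204 in the others (ratio 0.693). MetR_CE replicate 2 was highest for Epsti1 with 7.77 normalized CPM against 3.05 to 4.14 in the others (ratio 0.677), Fn1 with 395 normalized CPM against 158 to 212 in the others (ratio 0.679) and H2-Ab1 with 89.4 normalized CPM against 54.4 to 64.3 in the others (ratio 0.663). MetR_CE replicate 2 was lowest for Fgf21 with 2.39 normalized CPM against 5.97 to 9.11 in the others (ratio 0.678). MetR_CE replicate 4 was lowest for Prr13 with 23.9 normalized CPM against 27.6 to 29.3 in the others (ratio 0.720). MetR_CE replicate 6 was highest for Atp5g1 with 24.5 normalized CPM against 12.7 to 16.1 in the others (ratio 0.634). MetR_CE replicate 6 was lowest for Cd300lf with 0.0806 normalized CPM against 0.145 to 0.188 in the others (ratio 0.641) and Cthrc1 with 0.282 normalized CPM against 0.472 to 0.617 in the others (ratio 0.628).

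The effect of cold differed between the diets by the test of the interaction (edgeR's quasi-likelihood test, log2 interaction in parentheses) in 25 of the genes named. Some of these were named because of their interaction. Their number is therefore not comparable with the 0.511% positive and 1.14% negative over all genes. It was negative in Lgr6 (-3.74), Gpr3 (-2.55), Fasn (-1.47), Gpd2 (-1.42), Odf3l1 (-1.39), Agpat2 (-1.34), Rab3a (-1.05), Cs (-1.004), Lpin1 (-0.97), Ppp1r1a (-0.97), Slc2a4 (-0.96), Kmt5a (-0.94), Gypc (-0.91), Prkaca (-0.84), Cdo1 (-0.69) and Pex14 (-0.64). It was positive in Gdf15 (3.82), Vnn1 (3.07), Gnal (2.52), Zim1 (2.33), St6galnac5 (1.47), Hcar1 (1.32), Il4ra (1.16), Bmper (0.82) and Pdia4 (0.81). The calls of Bmper, Cdo1, Cs, Fasn, Gpd2, Gpr3, Lgr6, Lpin1, Pex14 and Slc2a4 were each lost without at least 1 of the 13 libraries of MetR_CE and Ctrl_RT left out in turn, 9 of them without MetR_CE replicate 4 and 9 without MetR_CE replicate 5. Without the 5 libraries high in skeletal muscle markers, the same genes and Hcar1 lost their calls, and edgeR's glmTreat called 0 of the 25.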

How the results depend on the processing

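With all libraries, 11734 genes had an unadjusted p under 0.05 against Ctrl_RT, 5000 against Ctrl_CE, 5667 against MetR_RT and 4921 for the interaction. Testing against the 1.5-fold threshold itself (edgeR's glmTreat, which asks more by its construction) left 842 genes higher and 2025 lower against Ctrl_RT, 2 and 0 against Ctrl_CE, 4 and 0 against MetR_RT, and 0 and 0 for the interaction. Lower genes against Ctrl_CE numbered 221 with the replicate block, 120 without the 5 libraries high in skeletal muscle markers, 785 with DESeq2 and 267 with DESeq2 and apeglm. Against MetR_RT, lower genes numbered 511 with filterByExpr, 44 without the muscle-rich libraries (60 higher), 730 with DESeq2 and 163 with apeglm. The interaction gave 229 positive genes with the replicate block, 52 without the muscle-rich libraries (113 negative), 250 with DESeq2 (678 negative) and 51 with apeglm, and 479 negative genes with filterByExpr. Of the named genes, 53 were called against MetR_RT and 37 against Ctrl_CE. Without the muscle-rich libraries 31 and 14 of these calls were lost, and with the replicate block 9 and 11. With DESeq2 and apeglm 17 and 18 were lost, with glmTreat 49 and 36, and without MetR_CE replicate 4 24 and 20. The cause of these moves was not tested. The omission of the muscle-rich libraries was chosen after seeing the data.

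Over the 13 libraries of MetR_CE and Ctrl_RT left out in turn (those of Ctrl_CE and MetR_RT were not left out singly), the counts ran from 1941 to 2251 higher and 3450 to 3800 lower against Ctrl_RT, from 57 to 206 and 78 to 445 against Ctrl_CE, from 72 to 209 and 106 to 496 against MetR_RT, and from 48 to 268 positive and 121 to 633 negative for the interaction. Without MetR_CE replicate 4, the counts against the single stimuli and of the interaction were the lowest.

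The replicate numbers did not pair the libraries. Correlations of deviations from the group means between same-numbered libraries ran from -0.256 to 0.337, and a fit with the number as a block called 1988 genes higher and 3375 lower against Ctrl_RT. Depth limits genes such as Kcnh6 and Mat1a, with 3 and 1 counts over Ctrl_RT.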

Other observations

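Several marker lists were not described above. Of 7 mural cell markers, 1 was called higher in MetR_CE against Ctrl_RT, Rgs5 of pericytes (log2 fold change 1.08 ± 0.22 (SE), adjusted p = 0.000329), and their summed level ran from 309.8 to 644 normalized CPM in Ctrl_RT and from 591 to 767 in MetR_CE. Of 7 markers of Schwann cells and nerve and 5 of mesothelium, 0 were called by the same edgeR test. The summed markers of Schwann cells and nerve ran from 210.2 to 502 in Ctrl_RT and from 123 to 455 in MetR_CE, so the groups overlapped. Of 4 markers of lymph node stroma, 0 were called, of 8 skin markers 1 was lower, of 11 mammary markers 1 was higher and 1 lower, and of 10 adipocyte markers 6 were higher. Of the 5 markers of the brown fat depot, Ucp1 was called higher and Epsti1, which interferon also induces, was called lower (log2 fold change -2.33 ± 0.36 (SE), adjusted p = 1.06e-05). The log2 fold change of Epsti1 was -2.03 without Ctrl_RT replicate 7. Of 12 B cell markers, Cd22 (-1.51) and Cd79b (-0.76), both at about 1 normalized CPM, were called lower (log2 fold changes), and Cd79b was lost without any one of Ctrl_RT replicates 2 and 6 and MetR_CE replicates 3, 4 and 6 (adjusted p from 0.0703 to 0.0827).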
